A study of Mus musculus with 9 samples.

Results

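The ends of the liver lobule are marked by 10 genes that were followed in 9 livers of ethanol-fed mice, 4 lacking *Ncf1* in myeloid cells and 5 WT. The 10 genes were chosen by name from the 55401 genes of the deposited table. Pericentral genes, used by hepatocytes around the central vein, were *Glul*, *Axin2*, *Lgr5*, *Oat*, *Slc1a2*, *Rhbg* and *Gulo* (7 genes). Periportal genes, used by hepatocytes around the portal triad, were *Hal*, *Gls2* and *Sds* (3 genes). All 10 were found in the table, and 9 of them passed the filter on low values. *Lgr5* did not.

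All mice were C57BL/6 females of 10 to 12 weeks that carried floxed *Ncf1* alleles (*Ncf1* fl/fl). *Ncf1*Lyz-/- mice (columns NKO2 to NKO5) also carried Lyz-Cre, a Cre driven by the lysozyme promoter in myeloid cells, so that macrophages as well as neutrophils were targeted. WT mice (columns WT1 to WT4 and WT6) were littermates without Cre. Both groups received a control liquid diet for 5 days, 5% (v/v) ethanol for 10 days and an ethanol gavage of 5 g/kg, and livers were taken 9 hours later. No mice without ethanol were analysed here, so values describe ethanol-fed livers only. *Ncf1*, the targeted gene, averaged 0.507 ± 0.256 (SD, n = 4) in *Ncf1*Lyz-/- and 0.989 ± 0.587 FPKM (SD, n = 5) in WT mice, with overlapping groups (log2 fold change −0.74, adjusted p = 0.890 from limma). Whole-liver *Ncf1* did not separate the groups, and its value covers the whole gene rather than the floxed exons.

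Hepatocytes divide metabolic work along the lobule. Around the central vein, Wnt2, Wnt9b and R-spondin 3 from endothelial cells activate β-catenin, which holds the program of glutamine synthesis and other pericentral enzymes, while periportal hepatocytes break down amino acids, make glucose and feed the urea cycle. Ammonia that escapes the periportal urea cycle is captured as glutamine in the last rows of cells before the central vein.

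The genes lie apart in the genome. In the GENCODE M21 annotation of GRCm38, the build of the coordinates given here, the gene bodies were *Glul* at chr1:153899944-153909723 on the plus strand, *Axin2* at chr11:108920349-108950783 on the plus strand, *Lgr5* at chr10:115450311-115587780 on the minus strand and *Oat* at chr7:132557478-132576398 on the minus strand. *Slc1a2* was at chr2:102658659-102790784 on the plus strand, *Rhbg* at chr3:88242874-88254709 on the minus strand and *Gulo* at chr14:65986786-66009207 on the minus strand. Of the periportal genes, *Hal* was at chr10:93488768-93519304, *Gls2* at chr10:128194457-128210004 and *Sds* at chr5:120476526-120483932, all on the plus strand. FPKM values are sums over each gene.

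β-catenin acts on DNA through TCF/LEF factors, so the start sites of the genes were searched for the TCF/LEF core. RefSeq windows (GRCm38.p6) from 250 bases before to 50 bases after the start were at hand for 5 of the 10 genes, *Glul*, *Axin2*, *Oat*, *Slc1a2* and *Hal*. The core CTTTGAT or CTTTGAA, on either strand, was in 2 of these 5 windows and in 2842 of all 32851 windows (8.65%). Both matches were of the form CTTTGAT, which 1225 of all windows (3.73%) hold. The pair is shown because one gene is pericentral and the other periportal, with the core in capitals, 5′ to 3′ on the plus strand, which is the strand of both genes.
*Slc1a2*, chr2:102706204-102706264, core beginning at −207 from the start and read on the minus strand: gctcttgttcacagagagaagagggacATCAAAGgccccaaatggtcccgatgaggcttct
*Hal*, chr10:93488542-93488602, core beginning at −199 from the start: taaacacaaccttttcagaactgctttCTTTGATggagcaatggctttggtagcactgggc
The *Slc1a2* window belongs to a start inside the gene body, downstream of the first annotated start. A match in these letters is a description of the window only.

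Libraries held 15.2 to 20.1 M fragments as recovered from low values. The 4 *Ncf1*Lyz-/- libraries, WT1 and WT2 lay between 18.1 and 20.1 M, and WT3, WT4 and WT6 between 15.2 and 15.9 M. No *Ncf1*Lyz-/- library was of the lower depth, so a contrast that rests on WT3, WT4 and WT6 cannot be told apart from depth. The 6 libraries of higher depth hold WT1 and WT2 as their only WT livers. A group difference that changes among them cannot be told apart from the larger weight of WT2. NKO3 and WT2 stood apart together. They were the 2 highest livers in 19.0% of the 12350 tested genes and the 2 lowest in 5.55%. WT3, WT4 and WT6 were the 3 lowest in 7.50% and the 3 highest in 2.11%. A zonation gene that sorts these livers is read against those shares. The comparison of the groups used limma on log2(FPKM + 0.1), adjusted over all 12350 genes, and single genes also by a two-sided exact permutation test whose smallest p is 0.00794. Samples are separate mice, so p-values measure the spread between these 9 animals.

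No zonation gene passed the test between the groups. Of the 9 tested members, 0 passed an adjusted p of 0.05 (limma, Benjamini-Hochberg), as did 1 of all 12350 genes (0.0081%), and 0 passed an unadjusted p of 0.05, as did 729 genes (5.9%). In all 10 members, *Lgr5* included, the values of the groups overlapped. Groups did not overlap in 273 tested genes (2.21%). Of the 6 tested pericentral genes 5 had a positive log2 fold change, with a median of 0.21, and 1 of the 3 periportal genes had one, with a median of −0.097. Over all tested genes the median was 0.0030, and 50.5% were positive.

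*Glul* encodes glutamine synthetase, which condenses glutamate and ammonia. It is the sharpest pericentral marker of the mouse liver. Its level was 119, 326, 161 and 198 FPKM in *Ncf1*Lyz-/- livers (NKO2 to NKO5, the order used throughout) and 153, 356, 118, 70.4 and 103 FPKM in WT livers (WT1 to WT4, then WT6). The highest and the lowest liver were both WT, and NKO3 stood close to WT2 at the top. Means were 201 ± 89.4 FPKM (SD, n = 4) and 160 ± 113 FPKM (SD, n = 5), a log2 fold change of 0.46 with a 95% interval from −0.53 to 1.45 (limma, adjusted p = 0.922). *Glul* had the widest spread of the 10 genes, with a ratio of 5.05 between the highest and the lowest liver, where the median over tested genes was 1.96. Without WT2 the log2 fold change was 0.81 (limma, adjusted p = 0.475), and among the 6 libraries of higher depth it was −0.31 (limma, adjusted p = 0.947).

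**Figure D1:**
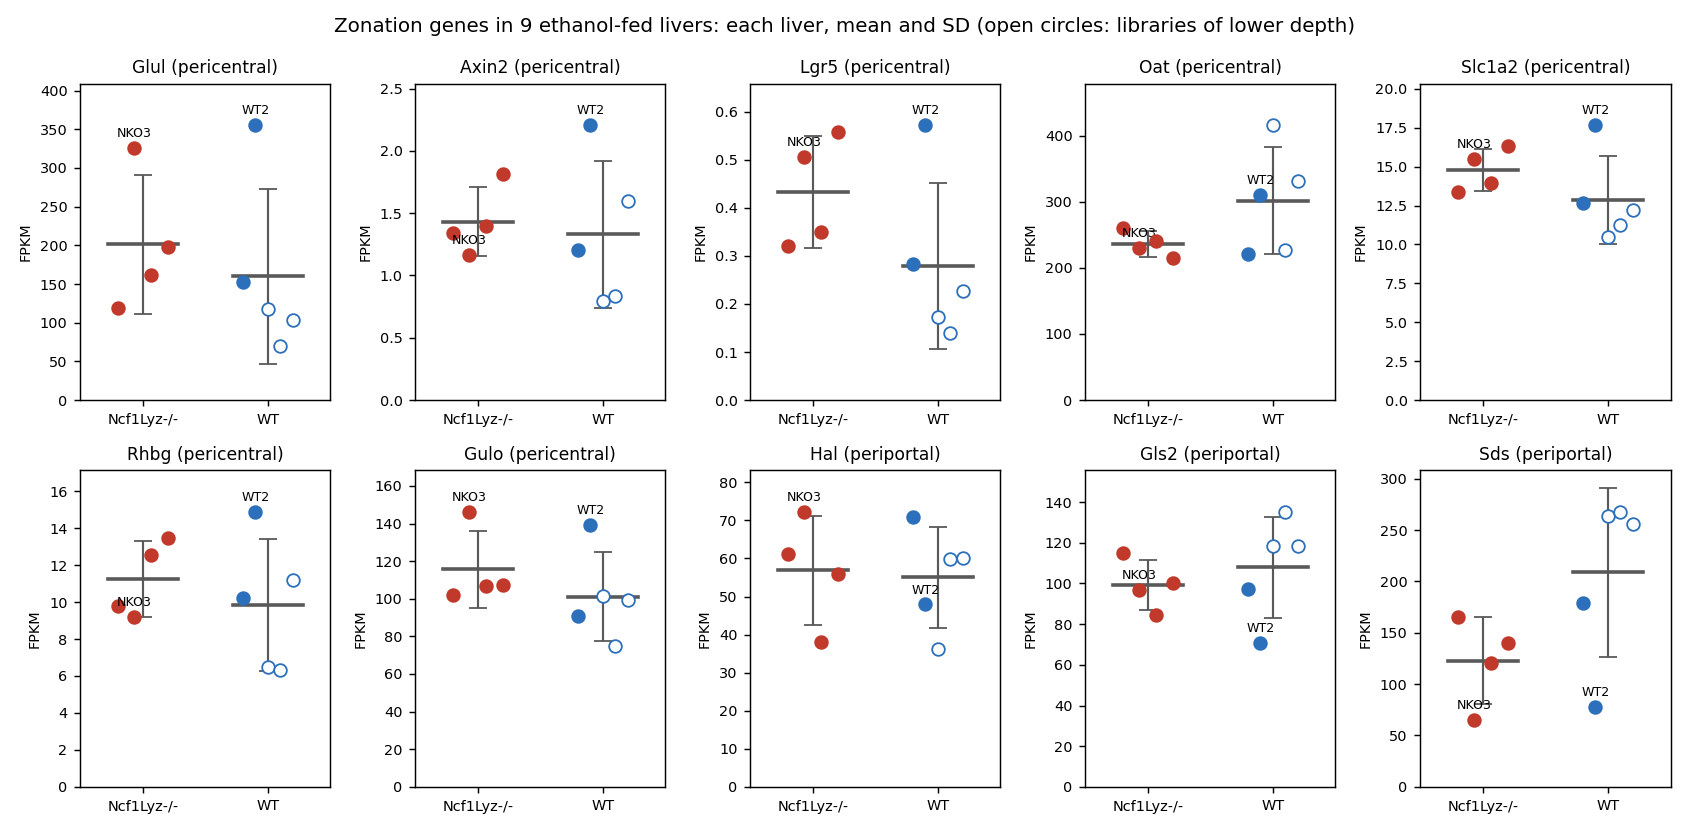
FPKM (vertical axis, from 0) of each of the 10 zonation genes in each liver, with group mean and SD (n = 4 *Ncf1*Lyz-/- in red, n = 5 WT in blue). Open circles are the 3 WT libraries of lower depth (WT3, WT4 and WT6), and NKO3 and WT2 are labelled: both are high in *Glul* (326 and 356 FPKM) and low in *Sds* (65.5 and 77.5 FPKM), and the groups overlap in every panel.

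*Slc1a2* (GLT-1), which brings glutamate into the cells that hold glutamine synthetase, had 13.3, 15.5, 14.0 and 16.3 FPKM in *Ncf1*Lyz-/- livers and 12.6, 17.7, 10.5, 11.3 and 12.2 FPKM in WT livers. WT2 was again the highest and the other 4 WT livers lay below all 4 *Ncf1*Lyz-/- livers. The log2 fold change was 0.22 (SE 0.15, limma adjusted p = 0.900), and 0.34 without WT2 (limma adjusted p = 0.419). Without WT2 the exact permutation test gave p = 0.0286, the smallest that 4 against 4 can give. That p follows from the order of the livers, since WT2 was the only WT liver not below all *Ncf1*Lyz-/- livers. With any other single library left out the exact permutation test gave p from 0.179 to 0.375. The log2 fold change was −0.0197 when only the 6 libraries of higher depth were kept. That subset drops 3 of the 4 low WT livers and also gives WT2, the highest liver, a larger weight. Which of these moved the value was not tested.

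*Rhbg*, an ammonium transporter of the basolateral membrane, ranged from 9.22 to 13.4 FPKM in *Ncf1*Lyz-/- livers and from 6.32 (WT4) to 14.9 FPKM (WT2) in the WT group (log2 fold change 0.25, limma adjusted p = 0.924). *Oat*, ornithine aminotransferase, links ornithine to glutamate and was the one tested pericentral gene with a negative log2 fold change. It had 260.4, 230.2, 240 and 214 FPKM in *Ncf1*Lyz-/- livers and 222, 311, 416, 227 and 331 FPKM in WT livers. WT2, WT3 and WT6 were above all *Ncf1*Lyz-/- livers, and WT1 and WT4 were among them. The log2 fold change was −0.31 (SE 0.19, limma adjusted p = 0.890). *Gulo*, the enzyme of the last step of vitamin C synthesis in mice, had 102, 146, 107 and 107 FPKM in *Ncf1*Lyz-/- livers and 90.7, 139, 101, 75.1 and 99.5 FPKM in WT livers. NKO3 and WT2 were the 2 highest, the other 7 livers spanned 75.1 to 107 FPKM, and the log2 fold change was 0.21 (SE 0.18, limma adjusted p = 0.910).

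*Axin2* and *Lgr5* are transcribed in response to β-catenin and mark the same cells at far lower levels. *Axin2*, a scaffold of the complex that degrades β-catenin, had 1.34, 1.17, 1.40 and 1.82 FPKM in *Ncf1*Lyz-/- livers and 1.21, 2.21, 0.799, 0.832 and 1.60 FPKM in WT livers. WT2 was the highest and WT3 the lowest, and NKO3, which was high in *Glul*, lay below the other 3 *Ncf1*Lyz-/- livers. The log2 fold change was 0.18 (SE 0.29, limma adjusted p = 0.951). *Lgr5*, a receptor for R-spondins, had 0.320, 0.506, 0.349 and 0.557 FPKM in *Ncf1*Lyz-/- livers and 0.282, 0.572, 0.172, 0.139 and 0.228 FPKM in WT livers. These values rest on about 10.7 (WT4) to 53.7 (NKO5) fragments a library. All *Ncf1*Lyz-/- livers lay above WT1, WT3, WT4 and WT6 and below WT2. The difference of mean log2 values was 0.57 (exact permutation test, two-sided, p = 0.127). Without WT2 it was 0.80 and the groups no longer overlapped, which by itself gives the smallest possible p (exact permutation test p = 0.0286). With any other single library left out the exact permutation test gave p from 0.143 to 0.25. Among the 6 libraries of higher depth the difference was 0.047.

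**Figure D2:**
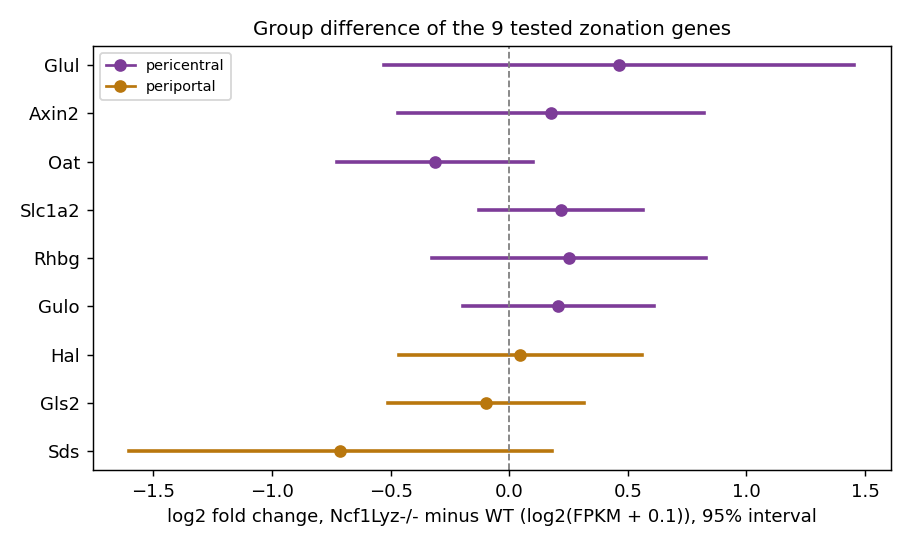
Log2 fold change, *Ncf1*Lyz-/- minus WT, on log2(FPKM + 0.1), with its 95% interval from limma (horizontal axis) for the 9 tested zonation genes, pericentral in purple and periportal in orange. Every interval holds 0, from *Glul* (0.46) to *Sds* (−0.71).

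Of the periportal genes, *Sds* had the largest difference of means. Serine dehydratase turns serine into pyruvate for gluconeogenesis. Its level was 166, 65.5, 121 and 140 FPKM in *Ncf1*Lyz-/- livers and 179, 77.5, 263, 268 and 256 FPKM in WT livers. WT1, WT3, WT4 and WT6 were above every *Ncf1*Lyz-/- liver, and WT2 was below 3 of the 4. Means were 123 ± 42.4 FPKM (SD, n = 4) and 209 ± 81.9 FPKM (SD, n = 5). The log2 fold change was −0.71 (SE 0.40, 95% interval −1.60 to 0.18, limma adjusted p = 0.890, exact permutation test p = 0.167). It was −1.04 without WT2 (limma unadjusted p = 0.00495, adjusted p = 0.397) and −0.76 without both NKO3 and WT2, a pair left out after their values were seen (limma adjusted p = 0.364). Among the 6 libraries of higher depth it was −0.0191.

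*Gls2*, the liver-type glutaminase, releases ammonia from glutamine at the periportal end, opposite to *Glul*. It had 115, 96.8, 84.7 and 100 FPKM in *Ncf1*Lyz-/- livers and 97.1, 70.8, 118, 135 and 119 FPKM in the WT group (log2 fold change −0.097, limma adjusted p = 0.961). WT2 was the lowest liver and WT4 the highest, the reverse of *Glul*. *Hal*, histidine ammonia-lyase, opens the breakdown of histidine and had 61.3, 72.3, 38.0 and 56.0 FPKM in *Ncf1*Lyz-/- livers and 71.0, 47.9, 36.2, 59.8 and 60.2 FPKM in WT livers. Its log2 fold change was 0.047 (limma adjusted p = 0.983), and NKO4 and WT3 were its lowest livers. Unlike *Sds*, *Hal* was highest in NKO3.

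Livers of both groups were set side by side by where their members stood. In WT2 all 7 pericentral genes were above their 9-liver median and 0 of the 3 periportal genes were. NKO4 and NKO5 each had 6 of 7 and 0 of 3 above it. WT4 and WT1 each had 0 of 7 and 2 of 3. In *Glul* (153 FPKM) and *Rhbg* (10.2 FPKM) WT1 was itself the median liver, and in *Gls2* it lay below the median (97.1 beside 100.4 FPKM). In *Hal* (59.8 FPKM) WT4 was itself the median liver. WT6 had 3 of 7 and 3 of 3, WT3 and NKO2 had 1 of 7 and 2 of 3, and NKO3 had 4 of 7 and 1 of 3. *Glul* ran from 0.521-fold of *Gls2* in WT4 to 5.03-fold in WT2. The log2 ratio of *Glul* to *Gls2* was 0.93 ± 0.69 (SD, n = 4) in *Ncf1*Lyz-/- mice and 0.37 ± 1.24 (SD, n = 5) in WT mice, a difference of 0.56 (exact permutation test, two-sided, p = 0.444). Single livers moved it, to 1.05 without WT2 (exact permutation test p = 0.0571), 0.85 without NKO2, 0.29 without NKO3 and 0.23 without WT4. It was −0.57 among the 6 libraries of higher depth (exact permutation test p = 0.467), where 4 livers against 2 can give no p below 0.0667.

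NKO3 and WT2 were the 2 highest livers in 2 of the 7 pericentral genes (*Glul* and *Gulo*) and the 2 lowest in 1 of the 3 periportal genes (*Sds*), beside 19.0% and 5.55% of all tested genes. WT3, WT4 and WT6 were the 3 lowest livers in *Glul*, *Lgr5* and *Slc1a2* and the 3 highest in *Gls2* and *Sds*, beside 7.50% and 2.11% of all tested genes. Of the 17 other periportal genes read here, NKO3 and WT2 were the 2 lowest livers in 4 and the 2 highest in 2 (*Hsd17b6* and *Etnppl*). The 4 were *Arg1*, *Cps1*, *Ass1* and *Asl*, enzymes of the urea cycle, singled out after their values were seen. Of the 17 other pericentral genes NKO3 and WT2 were the 2 highest livers in 2 (*Cyp2e1* and *Nr1i3*), a smaller share than the 19.0% of all tested genes, and the 2 lowest in 1 (*Gstm3*). *Cyp2e1*, the ethanol-oxidizing pericentral cytochrome, is shown as 1 of the 2 (2217 and 2087 FPKM, and 1151 to 1606 FPKM in the other 7 livers).

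**Figure D3:**
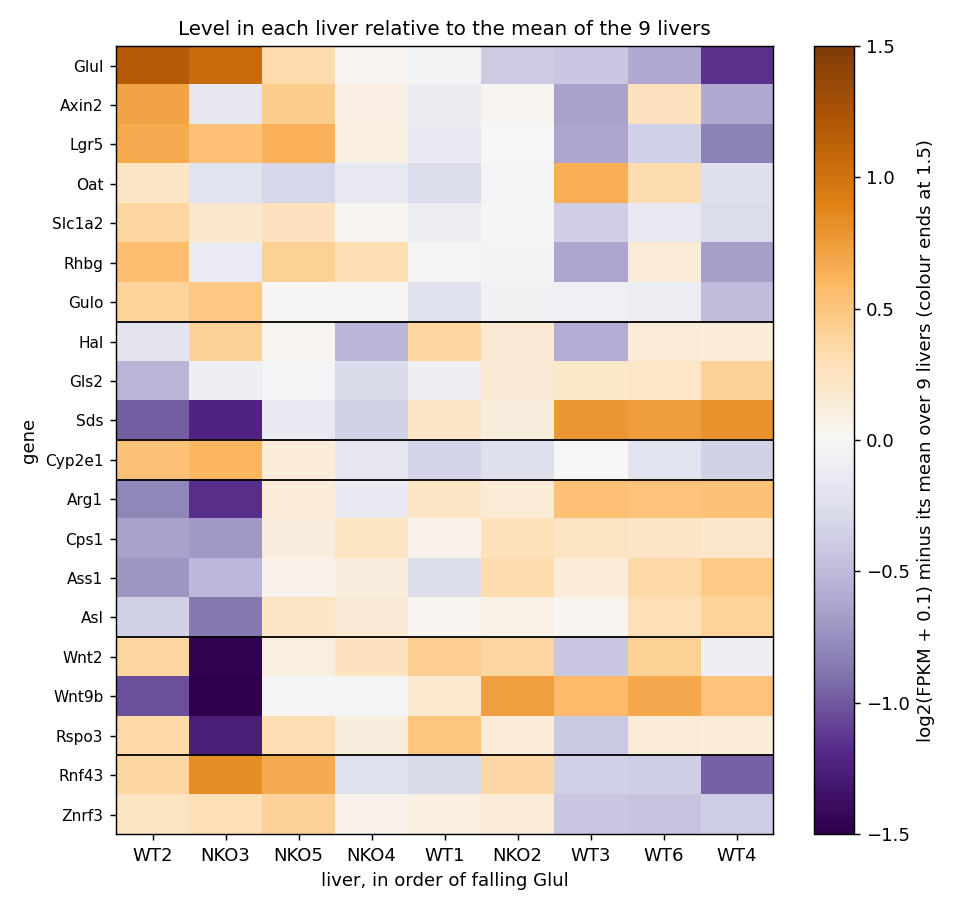
Log2(FPKM + 0.1) of each gene (rows) in each liver (columns, in order of falling *Glul*) minus the gene's mean over the 9 livers, in log2 units, with colour ending at 1.5. The rows are the 10 zonation genes, *Cyp2e1*, 4 urea cycle genes, 3 central-vein Wnt signals and 2 Wnt receptor inhibitors. WT2 and NKO3 lead in *Glul* and are lowest in *Sds* and the urea cycle genes, and NKO3 alone is lowest in all 3 Wnt signals.

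Correlations were computed for 7 pairs of members over the 9 livers on log2(FPKM + 0.1), with exact permutation p over all orderings and adjustment over the 7. *Glul* and *Slc1a2*, a synthetase and the transporter of its substrate, gave r = 0.86 (exact p = 0.00332, adjusted 0.0139) and rho = 0.92 (exact p = 0.00131, adjusted 0.00459). Without WT2 and WT4, the livers farthest from the median of *Glul*, r was 0.75 (exact p = 0.0498), and among the 6 libraries of higher depth it was 0.83 (exact p = 0.0569). In both subsets r stayed at 0.75 or above, though among the 6 libraries its p missed the threshold.

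*Glul* and *Gls2*, which run the glutamine reaction in opposite directions, gave r = −0.85 (exact p = 0.00398, adjusted 0.0139) and rho = −0.92 (exact p = 0.00131, adjusted 0.00459). Without WT2 and WT4 r was −0.61 (exact p = 0.139) and rho −0.82, and among the 6 libraries of higher depth r was −0.66 (exact p = 0.154) and rho −0.71. With fewer livers r no longer passed the threshold, while its sign stayed. *Axin2* and *Lgr5* gave r = 0.775 (exact p = 0.0148, adjusted 0.0345) and rho = 0.72 (exact p = 0.0369, adjusted 0.086). Without WT2 and WT3 r was 0.61 (exact p = 0.137), and among the 6 libraries of higher depth 0.67 (exact p = 0.178), where r again missed the threshold and kept its sign.

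The other 4 pairs did not pass. *Glul* with *Rhbg* gave r = 0.625 (exact p = 0.0703, adjusted 0.123) and rho = 0.63 (exact p = 0.076, adjusted 0.133), and *Glul* with *Axin2* gave r = 0.59 (exact p = 0.0917, adjusted 0.128) and rho = 0.52 (exact p = 0.162, adjusted 0.227). Without WT2 and WT4 these fell to r = 0.17 and 0.0711. *Glul* with *Oat* gave r = −0.12 (exact p = 0.769) and rho = −0.22 (exact p = 0.581), −0.64 without WT2 and WT4 and 0.36 among the 6 libraries of higher depth. The periportal pair *Hal* and *Sds* gave r = −0.13 (exact p = 0.734) and rho = −0.17 (exact p = 0.678). Points of a pair come from the same library, so depth and composition of a library enter both values.

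**Figure D4:**
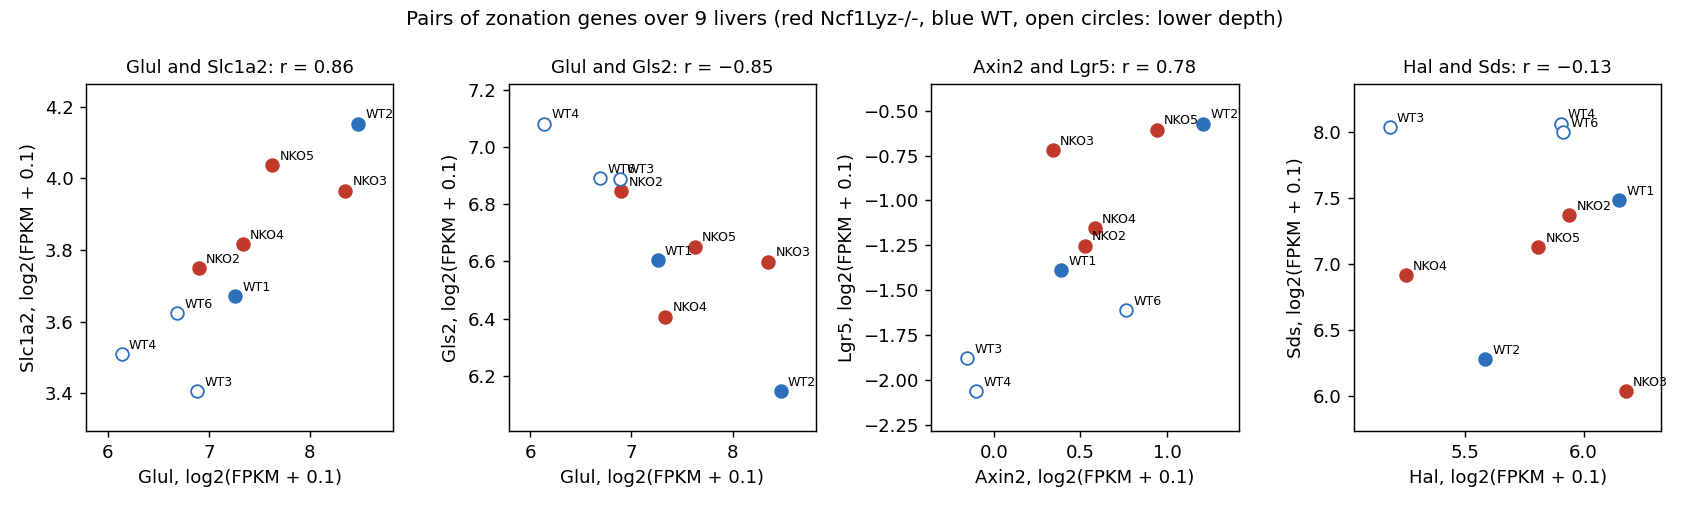
Log2(FPKM + 0.1) of one gene against another in the 9 livers, for 4 of the 7 pairs, each point a liver (red *Ncf1*Lyz-/-, blue WT, open circles the libraries of lower depth). *Glul* rises with *Slc1a2* (r = 0.86) and falls with *Gls2* (r = −0.85), *Axin2* rises with *Lgr5* (r = 0.775), and *Hal* and *Sds* form no line (r = −0.13).

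Upstream of the pericentral genes, the 3 central-vein signals had negative log2 fold changes that did not pass the test, and *Rspo1* was under the filter. *Wnt2* had 3.27, 0.842, 3.02 and 2.69 FPKM in *Ncf1*Lyz-/- livers and 3.40, 3.28, 1.85, 2.37 and 3.37 FPKM in the WT group (log2 fold change −0.33, limma adjusted p = 0.932). *Wnt9b* had 1.97, 0.306, 1.11 and 1.13 FPKM in *Ncf1*Lyz-/- livers and 1.31, 0.507, 1.74, 1.67 and 1.90 FPKM in the WT group (log2 fold change −0.41, limma adjusted p = 0.933). *Rspo3*, the R-spondin that keeps Wnt receptors on the surface, had 1.80, 0.616, 1.77 and 2.05 FPKM in *Ncf1*Lyz-/- livers and 2.35, 2.10, 1.21, 1.81 and 1.83 FPKM in the WT group (log2 fold change −0.33, limma adjusted p = 0.924). NKO3 was the lowest liver in all 3 while *Glul* was second highest there, and the negative signs of all 3 rested on this liver. WT2, the highest in *Glul*, was low in *Wnt9b* and not in *Wnt2* or *Rspo3*.

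Of the 7 receptors and co-receptors, 5 had a negative log2 fold change and 1 passed an unadjusted p of 0.05, beside 5.9% of all tested genes. That gene was *Lrp5*, a co-receptor of Wnt, with 5.34 ± 0.574 FPKM (SD, n = 4) in *Ncf1*Lyz-/- and 6.76 ± 0.819 FPKM (SD, n = 5) in WT mice. Its groups did not overlap, as in 2.21% of all tested genes (log2 fold change −0.33, limma unadjusted p = 0.0230, adjusted p = 0.839, exact permutation test p = 0.00794). *Lrp6*, its close relative (−0.19), *Fzd5* (−0.53) and the R-spondin receptor *Lgr4* (−0.20) did not pass. *Rnf43* and *Znrf3* encode ubiquitin ligases that remove Wnt receptors and are themselves induced by β-catenin. *Rnf43* had 2.94, 4.10, 1.93 and 3.69 FPKM in *Ncf1*Lyz-/- livers and 1.84, 2.96, 1.75, 1.11 and 1.72 FPKM in the WT group (log2 fold change 0.74, limma unadjusted p = 0.0266, adjusted p = 0.840). *Znrf3* had 0.831 ± 0.103 FPKM (SD, n = 4) and 0.618 ± 0.167 FPKM (SD, n = 5) (log2 fold change 0.40, limma adjusted p = 0.890). Both were lowest in the 3 livers of lower depth.

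Inside the cell, *Ctnnb1* (β-catenin) had 27.9 ± 3.16 FPKM (SD, n = 4) and 26.5 ± 5.56 FPKM (SD, n = 5), and neither it nor *Axin1* (0.20), *Csnk1a1* (−0.21) or *Gsk3a* (−0.085) passed at an unadjusted p of 0.05. Of the 6 genes of β-catenin and its degradation complex 3 were positive and 3 negative. At that p 0 genes passed of the 6 tested transcription factors and coactivators (4 positive and 2 negative), with *Tcf7l2* at −0.23, *Tcf7l1* at −0.37 and *Pygo2* at 0.90, and 0 of the 3 tested feedback targets (2 positive and 1 negative), *Tnfrsf19* (0.36), *Notum* (−0.26) and *Nkd1* (0.073). Over the 27 tested of 31 Wnt pathway genes listed, 13 had a positive and 14 a negative log2 fold change, with a median of −0.085. One passed an unadjusted p of 0.05 in each direction, beside 2.17% of all tested genes that were higher in *Ncf1*Lyz-/- livers and 3.73% that were lower. None passed an adjusted p of 0.05 in limma.

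Beyond the members, 17 pericentral and 17 periportal genes were read from the same fit, all of them tested and 0 called at an adjusted p of 0.05. Of the 17 pericentral genes 15 had a positive log2 fold change, beside 50.5% of all tested genes. The median of the 17 was 0.20. As each library was left out it ran from 0.0915 (without WT1) to 0.336 (without NKO3). It was 0.347 among the 6 libraries of higher depth, where WT1 and WT2 are the only WT livers. *Cldn2*, singled out after its values were seen, was positive through WT1, with 0.00392 FPKM there and 20.8 to 42.2 FPKM in the other livers. At an unadjusted p of 0.05, 3 of the 17 were higher and 1 lower, as were 2.17% and 3.73% of all tested genes. *Cyp7a1*, the cholesterol hydroxylase that opens the main route to bile acids, had 11.5, 17.1, 19.5 and 14.5 FPKM in *Ncf1*Lyz-/- livers and 1.67, 7.81, 4.23, 3.96 and 2.06 FPKM in WT livers. Its groups did not overlap, as in 2.21% of all tested genes (log2 fold change 2.14, limma unadjusted p = 3.37e-04, adjusted p = 0.416, exact permutation test p = 0.0159). *Cyp2a5* had 962 ± 136 FPKM (SD, n = 4) and 630.3 ± 124 FPKM (SD, n = 5) (log2 fold change 0.62, limma adjusted p = 0.605). *Tbx3*, a repressor induced by Wnt signals in pericentral cells, had 4.02 ± 0.797 FPKM (SD, n = 4) and 2.33 ± 0.877 FPKM (SD, n = 5) (log2 fold change 0.82, limma adjusted p = 0.784). *Cyp2e1* (0.16) and *Cyp1a2* (0.23) did not pass at either threshold. The gene lower at that p was *Slc13a3*, a dicarboxylate transporter (log2 fold change −0.43, limma unadjusted p = 0.029), which was singled out after its value was seen.

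Of the 17 periportal genes 8 had a positive and 9 a negative log2 fold change, with a median of −0.029, and 1 was higher and 2 lower at an unadjusted p of 0.05, beside the same 2.17% and 3.73%. *Pck1*, which commits carbon to gluconeogenesis, had 857, 389, 527 and 365 FPKM in *Ncf1*Lyz-/- livers and 1073, 1532, 1288, 1248 and 990.2 FPKM in WT livers. Its groups did not overlap, as in 2.21% of all tested genes (log2 fold change −1.27, limma unadjusted p = 4.38e-04, adjusted p = 0.475, exact permutation test p = 0.00794). WT2, which shared low *Sds* with NKO3, had the highest *Pck1*, so these 2 periportal genes did not follow the same livers. *Tat*, which starts tyrosine breakdown, had a log2 fold change of −0.98 (limma adjusted p = 0.842), and *Cyp2f2*, a cytochrome of periportal cells, had 0.28 (limma adjusted p = 0.839).

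Of 16 enzymes and transporters that share a substrate or reaction with the members, 10 were tested, and 4 had a positive and 6 a negative log2 fold change, with a median of −0.052. In the histidine pathway behind *Hal*, *Uroc1* (0.071), *Amdhd1* (−0.061) and *Ftcd* (−0.083) were within the spread of the livers. *Hdc*, which turns histidine into histamine and is not a hepatocyte enzyme, was the 1 gene of the 10 tested at an unadjusted p of 0.05, beside 5.9% of all tested genes. It had 1.52 ± 0.570 FPKM (SD, n = 4) and 2.31 ± 0.348 FPKM (SD, n = 5) (log2 fold change −0.62, limma adjusted p = 0.826). *Sdsl*, a relative of *Sds*, had a log2 fold change of −0.31 and *Prodh2*, a proline-pathway dehydrogenase of the liver, had 0.22, and neither passed. *Rhag* and *Rhcg*, relatives of *Rhbg*, were listed at the absent value in all 9 livers.

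Because whole liver was sequenced, fewer pericentral cells and less RNA per pericentral cell cannot be told apart. Hepatocyte markers summed to 45120 to 58610 FPKM in *Ncf1*Lyz-/- livers and 41070 to 53540 FPKM in WT livers, which fits the labelled tissue. NKO3 and WT2, the 2 livers highest in *Glul*, were the 2 highest in 5 of the 10 macrophage genes, beside 19.0% of all tested genes. In each of the other macrophage genes WT1, where *Glul* was not high, lay above NKO3. The summed macrophage level was 254 FPKM in NKO3, 322 FPKM in WT2 and 300.0 FPKM in WT1. It ranged from 131 to 254 FPKM in *Ncf1*Lyz-/- and from 113 to 322 FPKM in WT livers. NKO3 and WT2 were also the 2 highest in 3 of the 7 sinusoidal endothelial genes (*Stab2*, *Clec4g* and *Kdr*), beside 19.0% of all tested genes. In *Lyve1* (1.45 FPKM) and *Pecam1* (3.12 FPKM), singled out after their values were seen, NKO3 was instead the lowest of the 9 livers. The summed level of the endothelial list was 51.2 to 58.5 FPKM in *Ncf1*Lyz-/- livers and 36.2 to 65.9 FPKM in WT livers. Of that list *Lyve1* had a log2 fold change of −1.02 (limma unadjusted p = 0.0397, adjusted p = 0.842), with 4.72 to 7.85 FPKM in the *Ncf1*Lyz-/- livers other than NKO3.

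The summed levels of the other cell types were far below those of hepatocytes. Neutrophil markers summed to 4.08 to 22.0 FPKM in *Ncf1*Lyz-/- livers and 5.96 to 11.9 FPKM in WT livers, with *Ly6g*, *Mpo* and *Cxcr2* under the filter. Cholangiocyte markers summed to 18.9 to 32.2 FPKM and 7.48 to 35.4 FPKM, and stellate markers to 46.1 to 52.5 FPKM and 39.1 to 66.7 FPKM, with WT2 highest in both. Most of the cholangiocyte sum was *Spp1* (33.1 FPKM in WT2). WT2 was not the highest liver in *Krt19* or *Epcam* and was the lowest in *Sox9* (0.445 FPKM). Positive and negative log2 fold changes numbered 4 and 2 for hepatocyte, 5 and 2 for endothelial, 3 and 7 for macrophage, 1 and 3 for neutrophil, 3 and 1 for cholangiocyte and 3 and 3 for stellate genes. In limma 0 genes of these lists passed an adjusted p of 0.05, and *Lyve1* alone an unadjusted p of 0.05, beside 0.0081% and 5.9% of all tested genes. The part of cell composition in the spread of the zonation genes was not tested.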

How the data were processed

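Liver RNA of integrity above 7 was selected for poly(A), made into stranded libraries and read from both ends. The authors mapped reads with HISAT2, used StringTie and named edgeR for expression levels. Versions, build and annotation are not given in the sources used here. The deposited values are FPKM, as the authors computed them, with an absent gene listed at 0.0001. The authors' fold changes, p-values and q-values of the group comparison were not used.

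Columns were placed in a group by name and not tied to single labelled mice, since their numbers do not run like the labels' replicate numbers. Depth was recovered from 15108 genes with 1 transcript of at least 200 bases: 48.6% to 52.9% of low values lay on half-fragment steps (tolerance 0.1 of a step), or 37.8% to 42.3% without the first step, against 20% under an even spread. The fragments recovered were 19.1, 19.5, 18.6 and 20.1 M in NKO2 to NKO5, and 18.1, 18.6, 15.2, 15.9 and 15.3 M in WT1 to WT4 and WT6. A single fragment on 1 kilobase thus equals 0.0497 to 0.0656 FPKM. Of the gene identifiers, 55141 were in GENCODE M21 (GRCm38), which gave coordinates.

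limma 3.58.1 (R 4.3.3) with a mean-variance trend compared log2(FPKM + 0.1) in 12350 genes, those averaging 0.5 FPKM or more, with no covariate and Benjamini-Hochberg adjustment. The script was tested on simulated data. Fold changes on this scale understate changes of low genes. Exact permutation tests used all 126 assignments. Figures were drawn in Python 3.11.15 with matplotlib 3.10.9. Alternatives were other pseudocounts, filters, scaling, weights and subsets of libraries.

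The members and the 15 lists, written from general knowledge, were chosen with earlier results of these data known. Named genes were the members, *Ncf1*, 16 genes fixed by name and the 3 genes of smallest p in each list, of which the marker lists are described by their sums and a gene fixed by name is not reported here.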

Additional observations from a re-analysis of the deposited data

Results flagged for a closer look

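Within each group, the highest and the lowest liver were checked against the rest for the members and the named genes. The other genes of the lists were not all checked. Of 128 such checks 12 stood apart by Dixon's criterion, which chance meets in about 1 of 20. Of the members, *Gulo* was flagged for its 146.3 FPKM in NKO3, far above the other *Ncf1*Lyz-/- livers. NKO3 also stood apart in *Nkd1* (2.641 FPKM, high), *Prodh2* (50.72 FPKM, high) and *Ftcd* (99.69 FPKM, low). WT2 stood apart upwards in *Lrp6* (4.238 FPKM), *Axin1* (6.515 FPKM) and the stellate marker *Rgs5* (10.61 FPKM). NKO5 was high in the neutrophil genes *S100a8* (4.368 FPKM) and *Csf3r* (2.718 FPKM). Single livers stood apart in *Hdc* (2.377 FPKM in NKO2), *Tcf7l2* (1.262 FPKM in WT1) and *Apob* (130.5 FPKM in WT4), all high.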

How the results depend on the processing

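No member passed an adjusted p of 0.05 in limma under any alternative, the smallest being 0.358 for *Sds*. *Oat*, *Gulo*, *Sds* and *Lgr5* kept their sign in all. Among the 6 libraries of higher depth, where the median of all genes was −0.11, signs turned for *Glul* (−0.31), *Axin2* (−0.20), *Slc1a2* (−0.0197), *Rhbg* (−0.15), *Gls2* (0.25), *Hal* (−0.074) and the *Glul* to *Gls2* ratio (−0.57). Only WT1 and WT2 stand for WT there, so these turns cannot be told apart from the weight of WT2. *Hal* also turned with array weights (−0.043) and without NKO3 and WT2 (−0.12), and spanned −0.094 to 0.23 as each library was left out. The pair *Glul* and *Oat* turned to r = 0.36 among those 6 libraries, and *Hal* and *Sds* to 0.0723 there and 0.0708 without their 2 farthest livers. *Lgr5* reached 0.80 without WT2, and *Oat* −0.41 without WT1. The genes called numbered 1, 0 with no filter, 0 with no trend, 6 with array weights and 0 to 1 as each library was left out (1 without NKO2 or without WT2, 0 without any other library). At an unadjusted p of 0.05, scaling by median ratios gave 371 genes higher and 416 lower, beside 268 and 461 in the fit reported. The 3 other periportal genes at that p became 1 without NKO3 or WT3. The 2 Wnt pathway genes became 7 with array weights, 5 without WT2 and 1 without NKO4, without NKO5 or in the 6 libraries, and the 1 substrate-sharing gene became 2 with array weights, without NKO3, without WT2 or without both, and 0 in the 6 libraries. Causes were not tested. No paired analysis was possible because the columns carry no replicate number of the labels. Depth limits *Lgr5* and *Axin2* most, at 10.7 to 53.7 and 51.9 to 175 fragments a library.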
